A study of Mus musculus with 18 samples.

Results

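The cells that carried no lineage mark in Smoothened-driven mouse tumors were compared with the unmarked cells of normal muscle. The comparison used 7 of the 18 expression arrays of the series, chosen by their sample titles: 4 arrays of tumor cells sorted as Tomato-negative and Pecam1-negative, and 3 arrays of muscle cells sorted as Tomato-negative with no selection on Pecam1. All mice carried aP2-Cre/+ and tdTomato/+, so that cells with a history of Cre activity glow red. The aP2 promoter is that of Fabp4, a fatty acid binding protein of adipocytes and of many endothelial cells. Tumor mice carried in addition SmoM2/+, an activated form of Smoothened, the membrane protein that passes on the hedgehog signal. The muscle was the sternocleidomastoid of B6;SJL mice at postnatal day 21, and the tumors came from BJ;SJL;B6.129 mice at postnatal day 48 (repeats 1 to 3) or 38 (repeat 4). Tissue, SmoM2, age, strain and gate differed together between the groups, and their parts in any difference cannot be told apart.

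Both tissues were digested with collagenase B and Dispase II, sorted by flow cytometry and profiled from total RNA. The labels call the arrays biological repeats and do not say whether mice were pooled, so p-values measure the spread between these arrays. The other sorted populations were Tomato-positive/Pecam1-negative tumor cells (4 arrays), Tomato-positive/Pecam1-positive tumor cells (4 arrays) and Tomato-positive muscle cells (3 arrays, for 1 of which the genotype label gives tdTomato without a second allele). They enter here only where a result needs them.

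A tumor holds many cells that are not transformed: fibroblasts that lay down matrix, the smooth muscle cells and pericytes of vessel walls, and leukocytes that clear debris and release cytokines. The mononuclear cells that a digest frees from resting muscle include fibro-adipogenic progenitors, satellite cells (the muscle stem cells), vessel cells, Schwann cells and resident macrophages. In the hedgehog pathway, ligand binding to the receptor Ptch1 releases Smoothened, and Gli factors then switch on targets that include Gli1, Ptch1 and Hhip themselves.

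Levels are log2 intensities after each array's median over all probe sets was subtracted, so 0 is the median of that array, and differences are unmarked tumor minus unmarked muscle. The subtracted medians were 5.041 to 5.105 in muscle arrays and 5.41 to 5.438 in tumor arrays. Of 16011 genes tested with limma and Benjamini-Hochberg adjustment, 7796 (48.7%) passed an adjusted p of 0.05, of which 3805 (23.8%) were higher and 3991 (24.9%) lower in tumor. The 2 groups did not overlap for 3825 genes (23.9%) that were higher and 4008 (25%) that were lower. With an adjusted p under 0.05 and a change of at least 2-fold, 1139 genes (7.11%) were higher and 734 (4.58%) lower. Without the centring, which moves the median difference of all genes from -0.02 to 0.32, 9408 genes passed and 83.5% of them were higher, against 48.8% with it. Changes below are therefore relative to the median gene. For every gene list, counts against muscle are to be read beside the shares of all genes, 23.8% higher and 24.9% lower. The lists were chosen with earlier results of these data known, so their counts are a description. In bulk samples a lower level can mean fewer cells of a type or less RNA per cell, and these cannot be told apart.

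The gene of the gate followed the sort. Pecam1, an adhesion molecule of endothelial cells, was at 1.95, 1.92, 1.49 and 2.42 in tumor repeats 1 to 4 and at 3.29, 3.00 and 2.77 in muscle repeats 1 to 3. It was 2.1-fold lower in tumor (log2 difference -1.07, SE 0.18, adjusted p = 0.000156), and the groups did not overlap. Fabp4, whose promoter drives the Cre, was at 4.28 ± 0.63 (SD, n = 4) in tumor and 5.78 ± 0.25 (SD, n = 3) in muscle (log2 difference -1.50, adjusted p = 0.000507). Smo itself did not pass, at 2.80 ± 0.25 in tumor and 2.53 ± 0.24 in muscle (log2 difference 0.27, adjusted p = 0.13).

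The groups also differed in genes that mark neither stroma nor leukocytes. Xist, the RNA that silences an X chromosome in female cells, was at 5.76, 5.62 and 5.63 in muscle and between -0.22 and 0.13 in tumor. The Y-linked Kdm5d was at 1.27 ± 0.08 in muscle and 1.36 ± 0.20 in tumor (adjusted p = 0.576), while Uty was lower in tumor (log2 difference -0.48, adjusted p = 0.0116). The labels give no sex, and the sex of the mice and the group cannot be told apart. Genes of salivary gland stood high in some muscle arrays: Bpifa2, a secreted salivary protein, was at 7.64, 5.86 and -0.96 in muscle repeats 1 to 3 and between -1.41 and -1.18 in tumor. The mean over the 17 salivary genes tested was 2.12, 0.75 and 0.11 in these muscle arrays and -0.15 to 0.08 in tumor, where 3 members were higher and 8 lower. Bpifa2 differed by -5.47 (adjusted p = 0.00872) with all 3 muscle arrays and by -3.74 without muscle repeat 1, where it no longer passed (adjusted p = 0.0701). The part of salivary RNA in other results was not tested. The calls lost when muscle repeats 1 and 2 are both left out are given at the end.

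**Figure D1:**
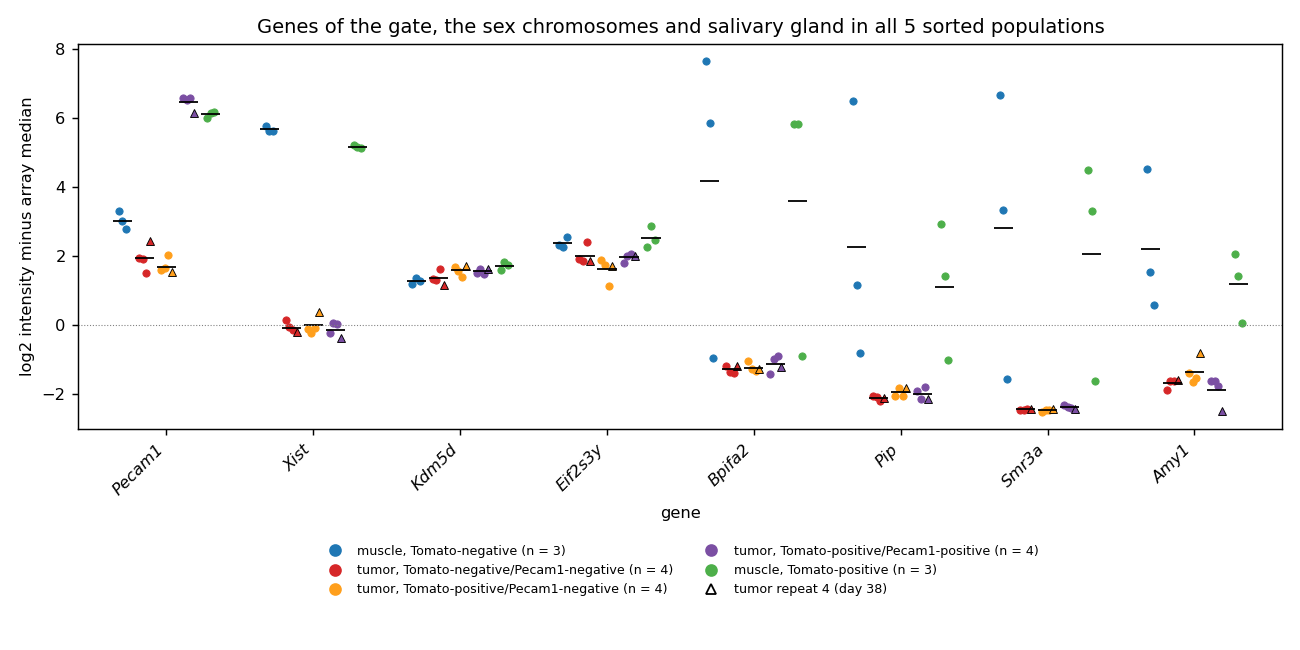
Levels of genes of the gate (Pecam1), the sex chromosomes (Xist, Kdm5d, Eif2s3y) and salivary gland (Bpifa2, Pip, Smr3a, Amy1) in each array of the 5 sorted populations, as log2 intensity minus the array median. Points are arrays, triangles are tumor repeat 4, and black lines are means. Xist is between 5.62 and 5.76 in unmarked muscle and at most 0.13 in unmarked tumor, and Bpifa2 ranges from -0.96 to 7.64 over the unmarked muscle arrays.

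Rises and falls were ranked among called genes without overlap, leaving out predicted, Rik, small RNA and accession-like symbols. The largest rises were of Rgs1 and Cd14. Rgs1, a brake on chemokine receptor signals in leukocytes, was at 3.84, 3.86, 3.99 and 3.22 in tumor repeats 1 to 4 and at -1.11, -1.76 and -1.32 in muscle. It was 35.0-fold higher in tumor (log2 difference 5.13, SE 0.27, adjusted p = 7.05e-10), with no overlap. Cd14, the endotoxin co-receptor of monocytes, was at 4.83, 4.54, 4.32 and 3.73 in tumor and at -0.01, -0.89 and 0.02 in muscle, 25.0-fold higher (adjusted p = 2.35e-09). The other 10 of the 12 largest rises were Ccl12 (log2 difference 4.45), Mmp12 (4.38), Ltbp2 (4.30), Ms4a7 (4.25), Il1a (4.22), Serpina3n (4.13), Il1r2 (3.97), Ms4a6c (3.96), Cd86 (3.90) and Ly86 (3.87). Of these, Ccl12 is a monocyte-attracting chemokine, Mmp12 the elastase of macrophages, Il1a a cytokine and Cd86 a co-stimulator on antigen-presenting cells. Ltbp2 differs from them, being a protein of elastic microfibrils.

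The 12 largest falls, ranked by the same rule, came from several kinds of gene. Beside Xist and the salivary genes Bpifa2, Smr3a, Pip, Cst10 and Amy1, they held the fast-fiber genes Pvalb (log2 difference -4.51) and Myh4 (-4.19), Sh3bgr (-3.71), the BMP antagonist Chrdl2 (-3.67), the olfactory receptor Olfr310 (-3.65) and the satellite cell receptor Calcr (-3.57). Chrdl2 was at -0.19, -0.04, -0.11 and -0.05 in tumor and at 3.90, 3.46 and 3.35 in muscle, a gap far wider than the spread in either group (adjusted p = 8.21e-10). Smr3a, Pip, Cst10 and Amy1 were, like Bpifa2, highest in muscle repeat 1 and lowest in muscle repeat 3. Without muscle repeat 1 the difference moved from -5.26 to -3.34 for Smr3a, from -4.39 to -2.28 for Pip, from -4.12 to -2.09 for Cst10 and from -3.89 to -2.74 for Amy1.

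**Figure D2:**
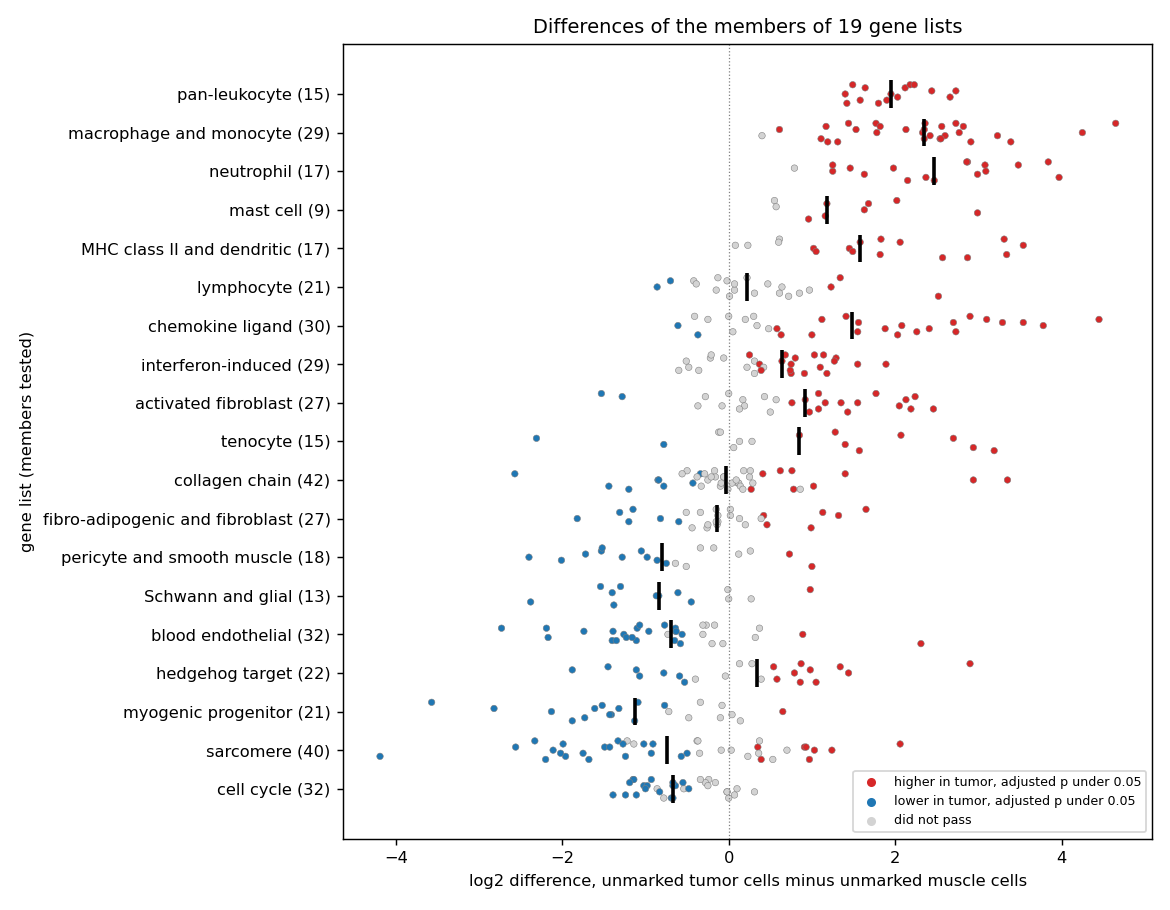
Log2 differences (unmarked tumor minus unmarked muscle) of the tested members of 19 gene lists, 1 point per gene. Red and blue points passed an adjusted p of 0.05, grey points did not, and black bars are list medians. The pan-leukocyte median is 1.95 with all 15 members to the right of 0, the lymphocyte median is 0.22, and the myogenic progenitor median is -1.13.

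All 15 genes of the pan-leukocyte list were higher in tumor (median log2 difference 1.95, against -0.02 over all genes and 23.8% of genes called higher). Ptprc (CD45), the common leukocyte antigen, was at 4.87, 4.65, 4.93 and 3.71 in tumor and at 2.43, 3.61 and 2.84 in muscle. Its lowest tumor array was only just above its highest muscle array, and the difference was 1.58 (SE 0.35, 2.98-fold, adjusted p = 0.00142). Lcp1, an actin bundler of blood cells, was 5.43-fold higher (adjusted p = 1.47e-07), and Ptpn6, a phosphatase that damps leukocyte receptors, was 6.30-fold higher (adjusted p = 8.42e-06). The mean over the list was 1.40 to 1.66 in the muscle arrays and 2.66 to 4.05 in the tumor arrays.

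Macrophage and monocyte genes rose almost as a block: 28 of 29 tested members were higher and none lower, with a median of 2.35. Ms4a7, a membrane protein of macrophages, was at 4.51, 4.25, 4.68 and 3.63 in tumor and at 0.14, -0.13 and 0.04 in muscle, 19-fold apart (adjusted p = 2.71e-08). Cybb, the catalytic subunit of the phagocyte oxidase, was 10.5-fold higher (log2 difference 3.39, adjusted p = 2.52e-08). Fcer1g, the shared signal chain of Fc receptors, was 7.06-fold higher (adjusted p = 6.96e-09), and Msr1, a scavenger receptor, 9.37-fold (adjusted p = 4.08e-07). The fractalkine receptor Cx3cr1 differed by 2.54 (adjusted p = 3.26e-07). None of these genes overlapped between the groups. The list's mean lay between 1.32 and 1.47 in muscle and between 3.11 and 3.96 in tumor.

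Neutrophil genes rose in 16 of 17 members tested, with a median of 2.47. S100a8, a calcium-binding protein abundant in neutrophils, was at 5.76, 5.02, 5.17 and 5.65 in tumor and at 2.63, 2.58 and 3.89 in muscle (5.16-fold, adjusted p = 5.56e-06). Il1r2, the decoy receptor for interleukin 1, was 15.7-fold higher (tumor 3.48 ± 0.71, n = 4, muscle -0.49 ± 0.36, n = 3, adjusted p = 6e-08). Ltf, lactoferrin of neutrophil granules, split the tumor group: it was at 3.37 and 3.85 in repeats 1 and 2, at 0.08 and 0.25 in repeats 3 and 4, and between -1.08 and -0.82 in muscle (adjusted p = 0.00672). Its difference of 2.87 moved to 2.21 without tumor repeat 2 and to 3.47 without tumor repeat 3. With muscle repeats 1 and 2 both left out, 6 of the 17 neutrophil genes were called higher.

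Of 9 mast cell genes tested, 7 were higher and none lower (median 1.18). Of the other listed members, 4 were too dim to test and 2 had no probe set with a single gene symbol. The tryptase gene Tpsab1 was at 0.91, 1.14, 1.56 and 1.70 in tumor and at -0.33, -0.80 and -0.95 in muscle, 4.05-fold higher (adjusted p = 4.95e-07). Hpgds, the prostaglandin D synthase of blood cells, was 7.96-fold higher (adjusted p = 2.71e-08). Cpa3, mast cell carboxypeptidase, was 2.26-fold higher (adjusted p = 0.00217), with its highest muscle array (2.38) just under its lowest tumor array (2.43). Cma1 and Gata2 did not pass (log2 differences 0.55 and 0.57, adjusted p = 0.113 and 0.0543). Mcpt4 passed but overlapped between the groups (log2 difference 0.96, adjusted p = 0.0117). Hdc, counted here as higher, is also in the neutrophil list.

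**Figure D3:**
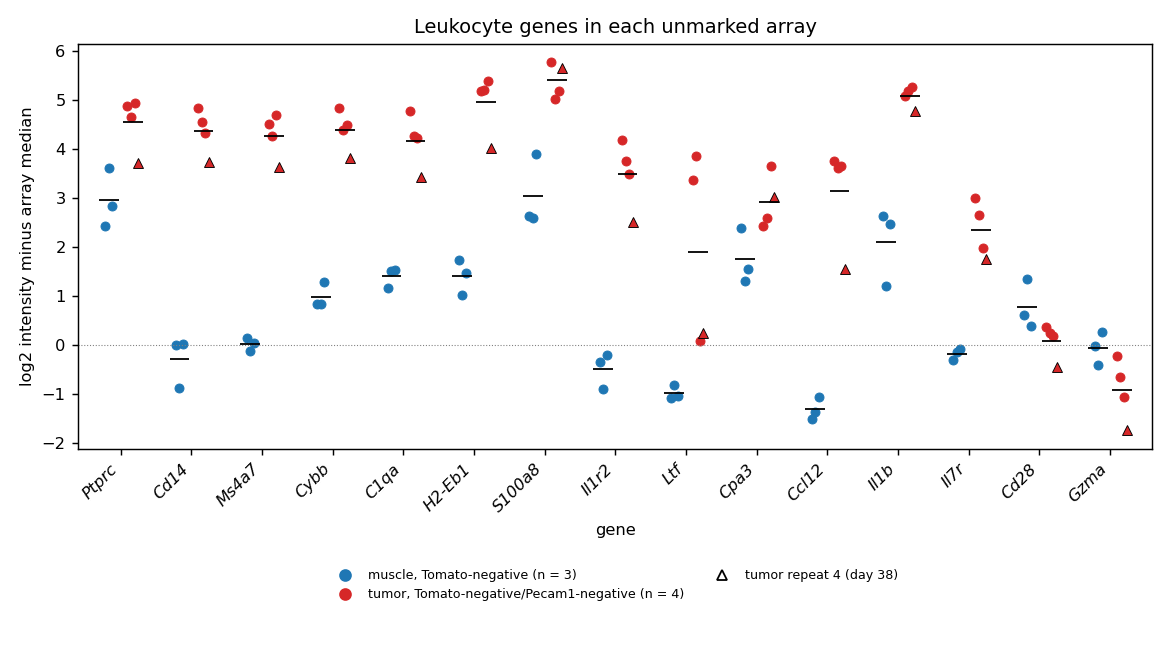
Levels of leukocyte genes in each unmarked array, as log2 intensity minus the array median, for 3 muscle arrays (blue) and 4 tumor arrays (red, with tumor repeat 4 as a triangle). Black lines are group means. Cd14 and Ms4a7 lie near 0 in muscle and between 3.63 and 4.83 in tumor, whereas Cd28 and Gzma are lower in tumor on average.

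Genes of antigen presentation through MHC class II also rose, in 13 of 17 members of a list of class II and dendritic cell genes, with none lower (median 1.58). H2-Eb1, a class II beta chain, was at 5.18, 5.19, 5.39 and 4.02 in tumor and at 1.72, 1.01 and 1.47 in muscle, 11.7-fold higher (adjusted p = 1.97e-06). H2-Aa, an alpha chain, was at 4.80, 4.73, 5.16 and 4.71 against 1.68, 1.39 and 1.46, 10.1-fold higher (adjusted p = 1.8e-06). Both of these chains stood above muscle in every tumor array, whereas H2-Oa overlapped between the groups (log2 difference 1.02, adjusted p = 0.0127). H2-DMa and H2-DMb1, which load peptides onto class II, were 9.93-fold (adjusted p = 6.27e-07) and 4.16-fold (adjusted p = 3.09e-05) higher, H2-Ab1 5.93-fold, and the dendritic cell integrin Itgax 7.32-fold (adjusted p = 3.82e-05).

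The class II genes moved together, and class II promoters are known for a shared CCAAT element, the Y box, so their promoters are shown for 3 members that carry it near the start. Each line is the 120 bases before the annotated start in RefSeq (GRCm38.p6), written 5′ to 3′ on the gene's strand, with GATTGG on either strand in capitals. H2-Aa lies on the minus strand at chr17:34287824-34287943, and H2-Eb1 and H2-DMb1 on the plus strand at chr17:34305747-34305866 and chr17:34153071-34153190.
H2-Aa: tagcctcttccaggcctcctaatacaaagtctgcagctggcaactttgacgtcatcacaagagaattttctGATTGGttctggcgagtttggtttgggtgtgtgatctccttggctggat
H2-Eb1: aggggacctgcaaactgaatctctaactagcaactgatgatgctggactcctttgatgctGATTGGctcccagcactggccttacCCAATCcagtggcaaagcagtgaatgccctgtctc
H2-DMb1: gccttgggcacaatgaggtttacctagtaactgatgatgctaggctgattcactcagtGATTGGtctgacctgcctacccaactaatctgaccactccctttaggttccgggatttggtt
Of 7 class II genes listed, 6 had a promoter sequence, and all 6 (H2-Aa, H2-Eb1, H2-DMa, H2-DMb1, H2-Oa and H2-Ob) held GATTGG on at least 1 strand within 250 bases before a start, H2-Eb1 on both. The same letters occur in 14.6% of 32851 promoter windows of that length and in 16.6% of genes. H2-Ab1 is the seventh.

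Lymphocyte genes did not share the rise of the myeloid genes. Of 21 tested, 3 were higher, 2 lower and the other 16 did not pass (median 0.22), against 23.8% higher and 24.9% lower of all genes. Il7r, the interleukin 7 receptor, was at 2.99, 2.65, 1.98 and 1.75 in tumor and at -0.31, -0.15 and -0.08 in muscle, 5.74-fold higher (adjusted p = 1.2e-06). Klrk1 and Nkg7, both of cytotoxic cells, were 2.52-fold (adjusted p = 0.00773) and 2.35-fold (adjusted p = 0.00875) higher. Gzma, a granzyme, and Cd28, a T cell co-receptor, were lower (log2 differences -0.86 and -0.70, adjusted p = 0.0189 and 0.0198). Those falls rested on single arrays: without tumor repeat 4 they were -0.58 (adjusted p = 0.0573) and -0.52 (adjusted p = 0.0636). Gzma also missed the threshold without muscle repeat 1 (-0.84, adjusted p = 0.0506) or 3 (-0.70, adjusted p = 0.0909), and Cd28 without muscle repeat 2 (-0.42, adjusted p = 0.15). Without tumor repeat 4 the list had 8 higher and 0 lower members, and without muscle repeat 2 it had 5 higher.

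Most ligands that attract leukocytes were higher in tumor. Of 30 chemokine genes tested, 20 were higher and 2 lower (median 1.48). Ccl4, a chemokine released by macrophages, was at 5.43, 5.11, 5.15 and 4.12 in tumor and at 1.60, 0.65 and 1.27 in muscle, 13.7-fold higher (adjusted p = 8.67e-07). Cxcl16 was 6.50-fold higher (adjusted p = 2.6e-10), the dendritic cell chemokine Ccl17 11.7-fold (adjusted p = 2.51e-06), and Cxcl9, an interferon gamma target, 6.63-fold (adjusted p = 1.94e-07). Ccl12 stood at 3.75, 3.60 and 3.64 in tumor repeats 1 to 3 but at 1.55 in repeat 4, still above its muscle maximum of -1.06. The lower members were Cxcl17 (log2 difference -0.61, adjusted p = 0.000138) and Cxcl12, a homing signal from stromal cells. Cxcl12 differed by -0.37 (adjusted p = 0.0435), and it missed the threshold in 6 of the 7 fits that leave out 1 array, where its difference was -0.39 to -0.26 and its adjusted p 0.0579 to 0.137, and passed without tumor repeat 1.

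Among 20 interleukins and myeloid growth factors, 14 were higher and none lower (median 1.08). Il1b, the secreted inflammatory interleukin 1, was at 5.08, 5.17, 5.25 and 4.76 in tumor and at 2.62, 1.20 and 2.47 in muscle, 7.82-fold higher (adjusted p = 9.89e-06). Tnf was 6.63-fold higher (adjusted p = 1.44e-05), Il18 4.44-fold (adjusted p = 5.18e-06) and Tgfb1, an inducer of matrix synthesis, 3.51-fold (adjusted p = 3.29e-07). Of 16 complement genes, 10 were higher and 1 lower. The receptors for the C5a and C3a fragments, C5ar1 and C3ar1, were 3.96-fold (adjusted p = 1.93e-08) and 6.66-fold (adjusted p = 1.28e-06) higher. C1qa and C1qb, chains of the first component, were 6.82-fold and 5.36-fold higher, and Masp1, a serine protease of the lectin pathway, 10.6-fold (adjusted p = 4.02e-07). Cd59a, which guards cells against the membrane attack complex, was lower (log2 difference -0.99, adjusted p = 0.000172).

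Interferon-induced genes rose in 18 of 29 with none lower, by smaller amounts (median 0.64). Irf7, a master factor of the response, was at 2.16, 1.79, 1.90 and 1.97 in tumor and at 0.62, 0.69 and 1.02 in muscle, 2.27-fold higher (adjusted p = 2.42e-07). Mx1, an antiviral GTPase, was 2.93-fold higher (adjusted p = 4.5e-06), and Psmb9, an immunoproteasome subunit, 3.71-fold (adjusted p = 1.6e-05). The count of lower members was 4 without muscle repeat 2 and 2 without muscle repeat 1.

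The tumor arrays were not alike in their leukocyte genes. Tumor repeat 4, the one taken at day 38, was the lowest of the 4 for 15 of 15 pan-leukocyte genes, 26 of 29 macrophage genes, 14 of 17 class II and dendritic genes and 19 of 21 lymphocyte genes, where 31.6% of all genes tested had it lowest. It was the lowest for 4 of 17 neutrophil genes. It was the highest for 19 of 27 activated fibroblast genes and 23 of 32 blood endothelial genes, against 32.8% of all genes. In the deposited values, the mean over the 3 tumor populations of a repeat number is the same for every number, within 7.67e-05 at each probe set, so a low value in 1 population of a repeat goes with higher values in the others. With 1 array at that age, age and animal cannot be told apart.

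Single collagen genes differed widely, but collagens were not called more often than other genes. Of 42 collagen chain genes tested, 9 were higher and 8 lower (median -0.03), no larger shares than the 23.8% and 24.9% of all genes. Col8a1, a short-chain collagen of vessel walls and remodelling tissue, was at 5.62, 5.80, 5.54 and 6.15 in tumor and at 2.62, 2.16 and 2.51 in muscle, 10.2-fold higher (adjusted p = 1.85e-10). Col12a1, which decorates collagen I fibrils, was at 5.41, 5.28, 5.56 and 5.86 against 2.40, 2.67 and 2.69, 7.68-fold higher (adjusted p = 2.35e-09). Both stood far from muscle in all 4 tumor arrays. Col11a1 (2.64-fold), Col9a2 (2.03-fold) and Col16a1 (1.70-fold) rose less.

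Other collagens fell. Col6a6, a collagen VI chain of the sheath around muscle fibers, was at 0.22, 0.16, 0.11 and -0.22 in tumor and at 2.61, 2.58 and 2.73 in muscle, 5.95-fold lower (adjusted p = 5.93e-10). Col1a1, the main chain of fibrillar collagen I, was at 4.53, 4.50, 4.24 and 4.20 against 5.11, 5.20 and 5.36, 1.80-fold lower (adjusted p = 0.000263). Its groups did not overlap. Col20a1, Col15a1, Col4a3, Col4a5, Col13a1 and Col17a1 were lower by 1.26 to 2.72-fold. Without centring Col17a1 stood at a difference of 0, and 20 collagens were called higher.

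Genes of activated fibroblasts rose in 15 of 27, with 2 lower (median 0.92), against 23.8% and 24.9% of all genes. Ccn2, a matrix signal induced by mechanical stress and TGF-beta, was at 5.25, 5.69, 5.40 and 5.69 in tumor and at 3.56, 3.12 and 3.26 in muscle, 4.58-fold higher (adjusted p = 1.81e-09). The collagen cross-linking oxidases Lox, Loxl3 and Loxl1 were 5.49-fold, 3.42-fold and 2.69-fold higher (adjusted p = 1.71e-06, 3.98e-07 and 5.42e-07). Tnc, tenascin C of remodelling matrix, was 4.14-fold higher (adjusted p = 1.08e-06). The 2 lower members, Tagln and Acta2, are contractile genes that smooth muscle shares. The 10 that did not pass included Fap, Lrrc15, Pdpn and Inhba (log2 differences 0.17, 0.43, 0.19 and -0.37). The list's mean was 3.52 to 3.68 in unmarked muscle and 4.28 to 4.67 in unmarked tumor. It was 4.18 to 4.47 in marked Pecam1-negative tumor cells, so the higher level was not particular to the unmarked cells.

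Markers of resting fibroblasts and fibro-adipogenic progenitors were called about as often as genes in general: 6 of 27 were higher, 6 lower and 15 did not pass (median -0.14), against 23.8% and 24.9% of all genes. Pdgfra, the receptor by which these progenitors are known, was at 3.10, 3.67, 3.14 and 4.24 in tumor and at 3.78, 3.71 and 3.88 in muscle, with overlap (log2 difference -0.25, adjusted p = 0.439). Without centring the sign of that difference turned, to 0.08. Clec3b and Cd34, both found in quiescent progenitors, were 3.53-fold (adjusted p = 1.16e-06) and 2.48-fold (adjusted p = 6.73e-05) lower. Mfap5, a microfibril protein, was 2.19-fold higher (adjusted p = 7.32e-05), and Fbln1, a basement membrane glycoprotein, 2.49-fold (adjusted p = 3.34e-06).

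Some matrix genes of tendon and cartilage were among the stromal genes that rose. In the tenocyte list 8 of 15 were higher and 2 lower (median 0.85), against 23.8% and 24.9% of all genes. The 5 that did not pass included Scx, Tnmd and Mkx (log2 differences 0.06, -0.10 and 0.13). Comp, a pentameric matrix protein of cartilage and tendon, was at 4.32, 4.70, 4.45 and 5.51 in tumor and at 1.05, 1.77 and 1.86 in muscle, 9.11-fold higher (adjusted p = 3e-06). Cilp, an extracellular protein of cartilage, was 6.49-fold higher (adjusted p = 8.23e-07), and Chad, a chondrocyte adhesion proteoglycan, 4.19-fold (adjusted p = 0.000291). The lower members were Kera, keratocan of tendon and cornea (4.98-fold, adjusted p = 0.00247), and Ptx4 (1.72-fold, adjusted p = 0.022). Ptx4 missed the threshold without tumor repeat 4 (log2 difference -0.54, adjusted p = 0.0696) or without muscle repeat 2 (-0.70, adjusted p = 0.0757).

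Of 16 small leucine-rich proteoglycans, which organise collagen fibrils, 8 were higher and 2 lower (median 0.53), against 23.8% and 24.9% of all genes. Omd, osteomodulin of bone, was 7.39-fold higher (adjusted p = 3.49e-07), Epyc, epiphycan of cartilage, 4.42-fold (adjusted p = 1.53e-08) and Prelp 2.98-fold (adjusted p = 2.42e-07). Kera and Nyx were the lower members.

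**Figure D4:**
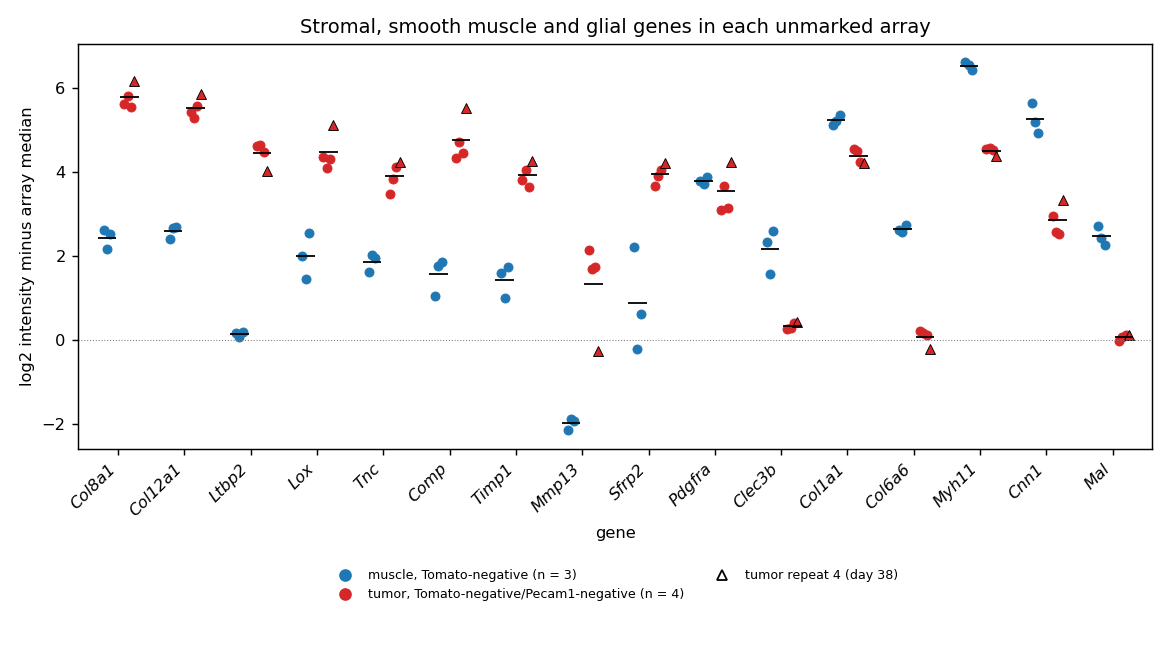
Levels of stromal, smooth muscle and glial genes in each unmarked array, as log2 intensity minus the array median, for 3 muscle arrays (blue) and 4 tumor arrays (red, with tumor repeat 4 as a triangle). Black lines are group means. Col8a1 and Col12a1 lie at 5.28 or more in tumor and at 2.69 or less in muscle, Pdgfra overlaps between the groups, and Myh11, Cnn1 and Mal are lower in tumor.

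Matrix proteases and their inhibitors moved in both directions. Of 31 tested, 14 were higher and 11 lower (median 0.26), against 23.8% and 24.9% of all genes. Of the lower ones, 9 were of the Adamts family, led by Adamts20 (6.36-fold, adjusted p = 2.68e-10). Mmp12, macrophage elastase, was at 3.70, 2.77, 3.25 and 1.55 in tumor and at -1.63, -1.44 and -1.61 in muscle, 20.8-fold higher (adjusted p = 3.72e-07). Mmp13, a collagenase, was at 2.14, 1.70, 1.74 and -0.26 against -2.14, -1.87 and -1.92, 9.89-fold higher (adjusted p = 1.6e-05). For both, tumor repeat 4 was the lowest of the tumor arrays yet above every muscle array. Timp1, an inhibitor of metalloproteases, was 5.63-fold higher (adjusted p = 2.72e-08), and Mmp14, a membrane-bound activator, 2.55-fold (adjusted p = 1.56e-05). The remaining lower members were Timp4 (2.66-fold, adjusted p = 0.00198) and Mmp3. Mmp3, stromelysin, was at -0.79, -0.53, -0.34 and -0.75 in tumor and at 0.56, -0.22 and -0.24 in muscle (log2 difference -0.64, adjusted p = 0.00976), and at a difference of -0.37 without muscle repeat 1 (adjusted p = 0.0829).

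Promoters of secreted metalloproteases are known for an AP-1 element close to the start, and 3 are shown because they carry the same letters while their genes moved in opposite directions. The lines give the 120 bases before the RefSeq start (GRCm38.p6, plus strand), with TGACTCA on either strand in capitals: Mmp12 and Mmp13, which rose, at chr9:7347254-7347373 and chr9:7272394-7272513, and Mmp3, which fell, at chr9:7445702-7445821.
Mmp12: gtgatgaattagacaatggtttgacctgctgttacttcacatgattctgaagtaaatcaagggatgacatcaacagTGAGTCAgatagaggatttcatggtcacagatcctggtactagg
Mmp13: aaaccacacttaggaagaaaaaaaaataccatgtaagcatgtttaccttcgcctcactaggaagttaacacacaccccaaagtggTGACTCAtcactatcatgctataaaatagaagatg
Mmp3: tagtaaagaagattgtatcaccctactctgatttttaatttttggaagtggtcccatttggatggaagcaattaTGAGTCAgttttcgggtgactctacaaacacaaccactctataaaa
The letters occur within 250 bases before a start in 5 of 12 Mmp genes with a sequence (Mmp3, Mmp7, Mmp10, Mmp12 and Mmp13). They occur in 5.16% of all genes and in 4.46% of all promoter windows of that length. GATTGG and TGACTCA do not contain each other.

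Genes of the Wnt antagonist and BMP lists were called higher more often than genes in general, and lower no more often. The lists were chosen with earlier results of these data known, so this is a description. In the Wnt antagonist list 9 of 17 were higher and 4 lower (median 0.79), against 23.8% and 24.9% of all genes. That list also holds the R-spondins Rspo1, Rspo2 and Rspo3, so its counts are not of antagonists alone. Sfrp2, a decoy for Wnt ligands, was at 3.66, 3.89, 4.04 and 4.22 in tumor and at 2.21, -0.20 and 0.62 in muscle, 8.42-fold higher (adjusted p = 1.52e-05). Its muscle arrays were spread widely, and without muscle repeat 1 the difference moved from 3.07 to 3.74. Wif1, which binds Wnt ligands outside the cell, was at 2.07, 3.24, 2.65 and 1.96 against -0.09, -0.02 and -0.18, 5.96-fold higher (adjusted p = 1.33e-05). Sfrp5 was 3.85-fold lower (adjusted p = 1.41e-08).

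Among 23 BMP ligands, antagonists and targets, 11 were higher and 3 lower (median 0.34), against 23.8% and 24.9% of all genes. Gdf10, a ligand of that family, was 4.85-fold higher (adjusted p = 7.45e-08), and the antagonists Nog and Chrdl1 were 4.37-fold (adjusted p = 1.25e-06) and 3.00-fold (adjusted p = 8.71e-05) higher. The lower members were the ligands Bmp4 (3.69-fold, adjusted p = 2.03e-07), Bmp6 (2.32-fold, adjusted p = 4.25e-05) and Bmp2 (2.73-fold, adjusted p = 0.00587). The antagonist Chrdl2, which the list does not hold, was among the 12 largest falls.

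Contractile genes of the vessel wall fell. In the pericyte and smooth muscle list 10 of 18 were lower and 2 higher (median -0.80). Myh11, the myosin of smooth muscle, was at 4.54, 4.57, 4.52 and 4.37 in tumor and at 6.60, 6.53 and 6.41 in muscle, 4.04-fold lower (adjusted p = 4.38e-05). Cnn1, calponin, was 5.27-fold lower (adjusted p = 3.26e-05), Lmod1, leiomodin, 3.30-fold (adjusted p = 3.25e-07), and Acta2, smooth muscle actin, 2.89-fold (adjusted p = 2.45e-05). Pericyte markers, picked out after their values were seen, were less uniform: Rgs5 (log2 difference 0.12), Pdgfrb (0.26), Abcc9 (-0.18) and Notch3 (-0.34) did not pass, while Kcnj8 (-1.05) and Cspg4 (-0.86) were lower. The higher members were Anpep, an aminopeptidase that pericytes share with other cells (1.66-fold, adjusted p = 0.000203), and Higd1b (2.00-fold, adjusted p = 0.0121). Higd1b missed the threshold without muscle repeat 2 (log2 difference 0.82, adjusted p = 0.0639).

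Blood endothelial genes fell in 21 of 32 and rose in 2 (median -0.69), in a comparison where the tumor gate removed Pecam1-positive cells and the muscle gate did not. Tek, the angiopoietin receptor, was at -0.08, 0.50, 0.13 and 0.94 in tumor and at 3.21, 3.05 and 3.05 in muscle, 6.62-fold lower (adjusted p = 8.95e-08). Cdh5, the cadherin of endothelial junctions, was 4.52-fold lower (adjusted p = 2.25e-06). The list's mean was 1.25 to 1.47 in muscle and 0.34 to 1.00 in tumor. The higher members were Esm1, a proteoglycan of sprouting tip cells (4.96-fold, adjusted p = 9.97e-05), and Eng, a TGF-beta co-receptor (1.85-fold, adjusted p = 4.42e-05). Without tumor repeat 3, 4 members were called higher. Of 7 lymphatic genes 3 were lower, among them Prox1 (2.90-fold, adjusted p = 0.000442), and Sema3d was higher.

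Schwann cell genes fell in 9 of 13, with 1 higher (median -0.84). Mal, a proteolipid of myelin, was at -0.01, 0.07, 0.12 and 0.13 in tumor and at 2.70, 2.42 and 2.27 in muscle, 5.22-fold lower (adjusted p = 5.22e-08). Mbp, myelin basic protein, was 2.60-fold lower (adjusted p = 1.32e-05) and Pmp22, peripheral myelin protein, 1.83-fold (adjusted p = 0.000123). Ngfr, the low-affinity neurotrophin receptor of immature Schwann cells, was the member that rose (1.97-fold, adjusted p = 0.000878).

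Genes of satellite cells and myoblasts fell in 13 of 21, with 1 higher (median -1.13). Calcr, a receptor of quiescent satellite cells, was at -1.13, -0.72, -0.89 and -0.97 in tumor and at 2.61, 2.68 and 2.62 in muscle, 11.9-fold lower (adjusted p = 9.99e-12). It was at or below -0.69 in all arrays of the other 3 populations as well. Pax7, the transcription factor that defines satellite cells, was at 1.72, 2.22, 2.75 and 1.05 against 3.47, 3.54 and 2.75, 2.49-fold lower (adjusted p = 0.00564), so that the highest tumor array met the lowest muscle array. Myod1, the myoblast determination factor, was 2.19-fold lower (adjusted p = 0.00114). With muscle repeat 3 as the only muscle array of the gate, Pax7 differed by -0.82 and did not pass (adjusted p = 0.246). Sdc3, a heparan sulfate proteoglycan of satellite cells and macrophages, was the member that rose (1.57-fold, adjusted p = 0.00815).

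Differentiation genes of muscle fell in 11 of 23 and rose in 3, against 24.9% and 23.8% of all genes. The 3 that rose are of the developing fiber or its assembly. Myog, the factor that starts differentiation, was at 2.10, 2.39, 2.70 and 1.43 in tumor and at 3.98, 5.12 and 4.87 in muscle, 5.66-fold lower (adjusted p = 7.14e-06). Myh3, embryonic myosin, was at 0.85, 1.54, 1.61 and 0.30 against -0.89, -0.70 and -0.78, 3.64-fold higher (adjusted p = 5.74e-05). Myh8, neonatal myosin, was 2.82-fold higher (adjusted p = 0.00219) and Smyd1, a methyltransferase of sarcomere assembly, 1.94-fold (adjusted p = 0.0067). Myh8 did not pass with muscle repeat 3 alone (log2 difference 0.86, adjusted p = 0.253).

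Sarcomere genes fell in 20 of 40 and rose in 8 (median -0.74), against 24.9% and 23.8% of all genes. Myh4, the myosin of the fastest fibers, was at -1.66, -1.36, -1.63 and -1.53 in tumor and at 4.44, -0.01 and 3.50 in muscle (18.2-fold lower, adjusted p = 5.22e-05). Its value in muscle repeat 2 stood far below the other muscle arrays, and without that array the difference was -5.51, or -3.29 without muscle repeat 1. Pvalb, the calcium buffer of fast fibers, followed the same order (5.55, 1.14 and 4.72), and its difference of -4.51 became -5.84 without muscle repeat 2 and -3.63 without muscle repeat 1. Among the members that rose were Tnnc1, the troponin C of slow and developing muscle (4.16-fold, adjusted p = 6.84e-05), Tnni1, slow troponin I (2.36-fold, adjusted p = 5.89e-05), and Myl4, an embryonic light chain (2.04-fold, adjusted p = 0.000607).

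**Figure D5:**
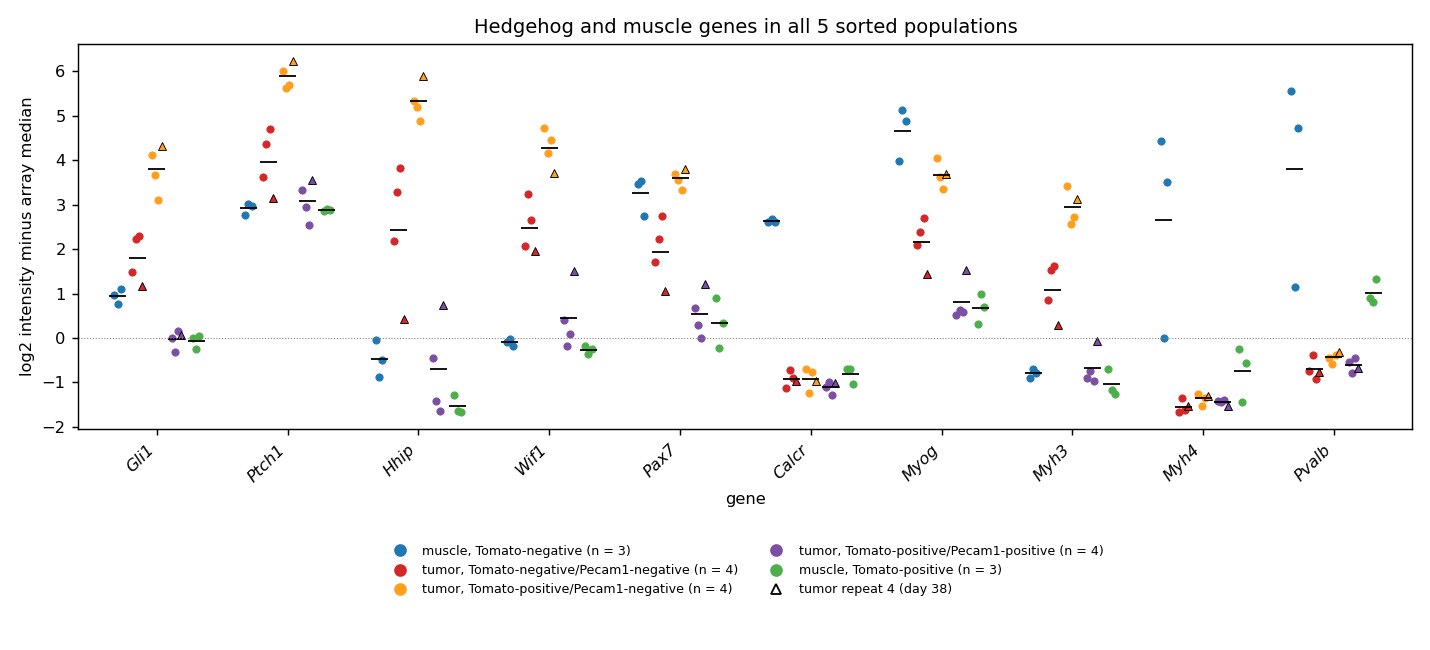
Levels of hedgehog genes (Gli1, Ptch1, Hhip, with the Wnt antagonist Wif1) and muscle genes in each array of the 5 sorted populations, as log2 intensity minus the array median. Points are arrays, triangles are tumor repeat 4, and black lines are means. Gli1 is between 1.18 and 2.30 in unmarked tumor, between 0.77 and 1.10 in unmarked muscle and between 3.11 and 4.31 in marked Pecam1-negative tumor cells.

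Hedgehog target genes moved in both directions: 10 of 22 were higher and 7 lower (median 0.34), against 23.8% and 24.9% of all genes. The list also holds the hedgehog co-receptors Boc, Cdon and Gas1. Hhip, a decoy that binds hedgehog ligands, was at 2.19, 3.29, 3.83 and 0.42 in tumor and at -0.04, -0.87 and -0.49 in muscle, 7.46-fold higher (adjusted p = 0.00114). Its difference of 2.90 was 3.57 without tumor repeat 4. Ptch1, the receptor, was at 3.62, 4.37, 4.70 and 3.16 against 2.77, 3.02 and 2.96, 2.07-fold higher (adjusted p = 0.00669). Gli1, a transcription factor and the usual readout of the pathway, was at 1.49, 2.23, 2.30 and 1.18 against 0.96, 0.77 and 1.10, 1.81-fold higher (adjusted p = 0.0149), with the lowest tumor array close to the highest muscle array. Without muscle repeat 2, Gli1 differed by 0.77 and missed the threshold (adjusted p = 0.0577). With muscle repeat 3 as the only muscle array of the gate, the adjusted p was 0.253 for Gli1, 0.137 for Ptch1 and 0.0515 for Hhip, and 4 targets were called higher.

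The same genes were higher still in the marked tumor cells. The Tomato-positive/Pecam1-negative cells had Gli1 at 4.11, 3.67, 3.11 and 4.31, Ptch1 at 6.0, 5.63, 5.68 and 6.22, and Hhip at 5.33, 5.19, 4.88 and 5.90. Unmarked minus marked tumor cells, the differences were -2.0 for Gli1 (adjusted p = 3.04e-05), -1.92 for Ptch1 (adjusted p = 8.26e-05) and -2.89 for Hhip (adjusted p = 0.00152). Over the list, 10 of 22 targets were lower and 3 higher in the unmarked cells (13.2% and 11.8% of all genes in this comparison). Wif1, Myh3 and Myh8 stood between muscle and the marked tumor cells in the same way, with unmarked minus marked differences of -1.78, -1.88 and -1.67 (adjusted p = 0.000622, 9.87e-05 and 0.00126). Both comparisons use the same unmarked tumor arrays. Whether marked cells entered the unmarked gate was not tested.

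The targets that fell against muscle included the ligands Bmp4 and Bmp2 and the cyclin Ccnd1 (2.10-fold, adjusted p = 0.00131). Igf2, a fetal growth factor, was at 4.18, 4.31, 4.40 and 3.19 in tumor and at 2.54, 2.90 and 2.59 in muscle, 2.54-fold higher (adjusted p = 0.000892), and Boc, a hedgehog co-receptor, was 2.71-fold higher (adjusted p = 7.51e-05). Among 14 pathway components 3 were higher (Kif7, Gli2 and Hhat, by 1.42 to 1.73-fold) and 3 lower (Dhh, Disp1 and Sufu), shares near those of all genes. Dhh, the hedgehog ligand of Schwann cells and endothelium, was 1.99-fold lower (adjusted p = 2.24e-05). Without tumor repeat 1, 5 components were called higher.

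No cell cycle gene was higher in the unmarked tumor cells: 18 of 32 were lower and 14 did not pass (median -0.67). Cenpf, a kinetochore protein made in dividing cells, was at 1.03, 1.04, 1.27 and 1.18 in tumor and at 2.52, 2.35 and 2.68 in muscle, 2.61-fold lower (adjusted p = 0.000123). Ccne1, the cyclin of S phase entry, was 2.22-fold lower (adjusted p = 2.9e-06), Prc1, a spindle protein, 2.36-fold (adjusted p = 0.000271) and Cdc6, a replication licensing factor, 1.98-fold (adjusted p = 2.09e-05). The muscle came from mice of 21 days and the tumors from mice of 38 or 48 days. The count of lower genes was 11 without muscle repeat 3, and without centring it was 9, with 2 higher.

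Whether marked cells differed between the tissues in the same way was tested as a difference of differences: unmarked tumor minus unmarked muscle, less Tomato-positive/Pecam1-positive tumor minus Tomato-positive muscle. These 4 groups share no arrays. The marked tumor cells were sorted as Pecam1-positive, whereas the marked muscle cells were sorted on Tomato only, so the gate also differs within the marked pair. Its part in these values was not tested. The unmarked difference is itself part of this measure, so genes or lists chosen for it are favoured, and their values here are a description. Of 16011 genes, 1486 (9.28%) had a larger and 1174 (7.33%) a smaller difference in the unmarked cells. Leukocyte genes were among the larger: 27 of 29 macrophage genes, 13 of 15 pan-leukocyte genes and 10 of 17 neutrophil genes, with Tnf at 4.78 (adjusted p = 1.14e-05) and C1qb at 3.49 (adjusted p = 9.22e-06). Satellite cell genes were among the smaller in 10 of 21, with Calcr at -3.27 (adjusted p = 2.34e-08). Matrix genes divided. The difference of differences was 2.90 for Col8a1 (adjusted p = 2.56e-07) and 3.04 for Col12a1 (adjusted p = 5.44e-07), but 0.13 for Ccn2 (adjusted p = 0.697) and 0.25 for Loxl1 (adjusted p = 0.455). The marked Pecam1-negative tumor cells are not part of this measure. Unmarked minus those cells, Col8a1 differed by 0.08 (adjusted p = 0.739) and Col12a1 by 0.11 (adjusted p = 0.692). The high level of these collagens was thus not particular to the unmarked tumor cells.

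With muscle repeats 1 and 2 left out of both muscle populations, 53 of the 271 named genes lost their call. Beside the genes already named for this, they include Klrk1, Nkg7, Gzma, Cd28, Cxcl12 and Ltf among leukocyte genes. Among matrix and stromal genes they include Col11a1, Col15a1, Col4a5, Col13a1, Chad, Ptx4, Timp4, Mmp3, Higd1b and Ngfr, and among hedgehog, BMP and muscle genes Ccnd1, Bmp2, Hhat, Disp1, Sufu and Sdc3. The matrix protease list went from 14 higher and 11 lower to 8 and 4. The fibro-adipogenic list went from 6 and 6 to 3 and 4, and the hedgehog targets from 10 and 7 to 4 and 3. The higher members fell in number from 8 to 5 in each of the tenocyte, proteoglycan and sarcomere lists, and the lower collagens from 8 to 5. The lower members of the Wnt antagonist list went from 4 to 2 and the lower pathway components from 3 to 1. In the interferon-induced list 13 were then higher and 4 lower. Macrophage and pan-leukocyte genes were higher in 27 of 29 and 14 of 15.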

How the data were processed

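RNA of sorted cells was measured on 18 mouse expression arrays. The deposited values are log2 intensities of 41345 probe sets, made with RMA and Partek per the submitters' processing notes; versions, order of steps and the array's name are not given in the sources used here. Probe sets with several gene symbols (1814) or none (16010) were left out. Of 22180 genes, 1082 had several probe sets, and the brightest was kept. Each array's median was subtracted, and genes above their array's 40th percentile on at least 3 arrays were tested (16011; 6169 were too dim).

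One model with a mean for each of the 5 sorted populations was fitted over all 18 arrays with limma 3.58.1 in R 4.3.3 (13 residual and 3.9 prior degrees of freedom), with moderated two-sided tests. P-values were adjusted by Benjamini-Hochberg over all genes tested. The tumor values appear adjusted for the repeat number before deposit (repeat means equal within 7.67e-05), a step the 13 degrees of freedom do not account for and which tends to make p-values too small. With 3 against 4 arrays an exact permutation test cannot go below p = 0.0571, so none was used. Precision is limited by how few arrays each group has. The fit was tested on simulated data.

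The members and 36 gene lists were chosen with earlier results of these data known. Named genes are 11 always given (such as Pecam1, Gli1 and Ptprc), the 12 highest and 12 lowest differences without overlap between the groups, and from each list at most 6 members by smallest adjusted p, every member on the smaller side, and all that passed where 5 or fewer did. Leave-one-out fits, other scalings, filters, variance models and replicate blocks were tried as alternatives. Deviations of unmarked tumor and muscle arrays correlated at r = -0.02 to 0.07 for the same repeat number and -0.09 to 0.06 for others. The tumor values appear adjusted for the repeat number, so these correlations cannot show whether repeats were paired. Promoters are RefSeq's (GRCm38.p6). Figures used Python 3.11.15, pandas 2.3.3 and matplotlib 3.10.9.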

Additional observations from a re-analysis of the deposited data

Results flagged for a closer look

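The difference between tumor and muscle was not the same in unmarked cells as in the marked pair (Tomato-positive/Pecam1-positive tumor cells and Tomato-positive muscle cells): limma's test of the difference of differences called 2660 of 16011 genes at an adjusted p of 0.05. The genes given here were chosen for their unmarked difference, which is part of this measure, or were always to be given, so their values are a description. Among the 12 largest rises it was 4.37 for Rgs1, 2.59 for Cd14, 3.79 for Ccl12, 3.84 for Mmp12, 3.75 for Ltbp2, 3.83 for Ms4a7, 4.06 for Il1a, 3.13 for Serpina3n, 3.77 for Il1r2, 3.58 for Ms4a6c, 3.29 for Cd86 and 3.93 for Ly86 on the log2 scale, and for Ptprc it was 2.04. It was negative for the muscle genes Pvalb (-2.88), Myh4 (-3.49), Sh3bgr (-2.94), Pax7 (-1.53), Myod1 (-1.14), Myog (-2.65) and Calcr (-3.27), for the BMP antagonist Chrdl2 (-3.43), and for Pecam1 (-1.42) and Smo (-1.04). The Pecam1 value sits beside gates that took Pecam1-negative cells in unmarked tumor and Pecam1-positive cells in marked tumor. Neither muscle population was selected on Pecam1.

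In 17 of the 271 named genes (6.27%), 1 unmarked tumor array stood apart from the other 3, with a gap to the nearest array over the whole range above Dixon's critical value. About 1 in 20 groups of independent values meets that criterion by chance. The named genes share lists and arrays and are not independent, so whether the count exceeds chance was not tested. Repeat 4, taken at day 38, was the array apart for Prelp (0.96), Sdc3 (0.94), Ccl12 (0.93), Thbs4 (0.92), Ncmap (0.92), Cd59a (0.91), Il18 (0.87), Il1a (0.85), H2-Eb1 (0.85), Cd86 (0.84) and Fabp4 (0.83). It was below the others for Ccl12, Il1a, Il18, Cd86, H2-Eb1, Cd59a and Sdc3, and above them for Fabp4, Prelp, Thbs4 and Ncmap. Repeat 1 was apart, and lowest, for Col4a5 (0.99), Amy1 (0.94), Loxl1 (0.85) and Tpm1 (0.83). Repeat 3 was apart, and highest, for Cdon (0.91) and Adamts17 (0.89).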

How the results depend on the processing

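The count for unmarked tumor against unmarked muscle (7796 genes) was 1873 at a minimum of 2-fold; over the fits that leave out 1 array it was 6857 to 7562, and it was 5228 without muscle repeats 1 and 2, of which 4812 were shared. That fit leaves 1 array in each muscle group, assumed to vary like the other groups. The count for unmarked against marked Pecam1-negative tumor cells (4005) was 2408 at an adjusted p of 0.01 and 997 at 2-fold, with 2805 to 4027 over single left-out arrays. The difference of differences (2660) was 1411 at an adjusted p of 0.01, 1294 at 2-fold, 945 without muscle repeats 1 and 2, and 2301 to 2832 over single left-out arrays. With a replicate block the 3 counts were 6645, 3054 and 1957 (fixed), 6467, 2782 and 1686 (nested in tumor) and 8071, 2893 and 1786 (random).

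Of 271 named genes, 171 kept their direction and call under every alternative that tested them. Without centring 5 turned in sign: Pdgfra (0.08), Col17a1 (0), Rpl27 (0.06), Rps6 (0.09) and Rpl19 (0.1). Calls were lost for 53 without muscle repeats 1 and 2, 25 without centring, 77 at 2-fold, 27 at an adjusted p of 0.01, 15, 11 and 3 with the nested, fixed and random block, and 6 to 18 when 1 array was left out. Smo passed as higher without centring. Beyond fewer arrays and stricter thresholds, the cause was not tested. Brightness over background was not in the values used, so dim probe sets limit how far low levels can be told apart.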

Other observations

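Of 19 adipocyte genes 8 were higher and 4 lower in the unmarked tumor cells (median log2 difference 0.33), against 23.8% and 24.9% of all genes. Without muscle repeats 1 and 2 there were 5 higher and 3 lower. Cidea and Cidec, lipid droplet proteins, were 2.46-fold (limma, adjusted p = 1.02e-07) and 2.73-fold (adjusted p = 0.000372) higher, and Cebpa, a factor of fat and myeloid cells, 3.91-fold (adjusted p = 1.34e-05). The lower members were Fabp4, the fatty acid transporter Cd36 (2.37-fold, adjusted p = 4.38e-06), the insulin-responsive glucose carrier Slc2a4 (1.90-fold, adjusted p = 0.000143) and Plin4 (1.61-fold, adjusted p = 0.0105). Of 14 genes of an imprinted growth network 8 were lower and 2 higher (median -0.58), against 24.9% and 23.8% of all genes. Meg3, a maternally expressed long RNA, was at 3.01, 3.85, 3.66 and 3.22 in tumor and at 5.08, 4.52 and 4.75 in muscle, 2.55-fold lower (adjusted p = 5.07e-05), while Igf2 and Nnat (2.51-fold, adjusted p = 0.000172) were higher.

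Hypoxia and glycolysis genes were called about as often as all genes (23.8% higher and 24.9% lower), with 3 of 17 higher (Hk2, 3.02-fold, Bnip3 and Pfkfb3) and 5 lower (median -0.28). The lower count was 2 without muscle repeat 1 or 3 and 3 without tumor repeat 1 or 2, and without centring the median was 0.05, with 6 higher and 2 lower. Of 20 genes induced by tissue dissociation 5 were higher, near the share of all genes, and none lower (median 0.42), led by Dusp1 (1.95-fold, adjusted p = 0.000106), and without muscle repeat 2 there were 2 higher and 1 lower. Without tumor repeat 1 or 2 the higher count was 3, and without centring 12. Among 11 keratinocyte genes 2 were higher and 3 lower, near the shares of all genes. Among 2 erythroid genes Slc4a1 was lower (2.17-fold, adjusted p = 0.000736), and among 16 ribosomal protein genes 1 was higher and 6 lower (median -0.19). Without muscle repeat 3, 2 ribosomal protein genes were called lower, and without centring the median was 0.15, with 3 higher and 1 lower.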
